A study of Zea mays with 36 samples.

Results

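OBF1 and lip15 are maize genes for transcription factors of the bZIP class, and their transcripts were followed here in microdissected shoot apical meristems of rgd2-R mutant and non-mutant seedlings. They are 2 of the 766 genes that the platform annotation names on the 2 spotted array designs. Their probes were taken where that annotation gives the symbol or synonym OBF1 (Entrez gene 542394) or lip15 (Entrez gene 542700), which is 8 of 35200 probes. The SAM1 design (19200 probes) held 4 OBF1 and 2 lip15 probes, and the SAM3 design (16000 probes) held 0 OBF1 and 2 lip15 probes. The genes were chosen by earlier results of these data, among them the SAM1 ratio of rgd2-R over non-mutant of an OBF1 probe. Their SAM1 ratios are therefore given as a description, without a test.

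bZIP proteins bind DNA as dimers through a basic region next to a leucine zipper. OBF1 was described as a factor that binds the ocs element, a sequence found in promoters of Agrobacterium opine genes and of plant stress genes such as those for glutathione transferases. lip15 was described as a bZIP gene induced by low temperature in maize seedlings. The mutation lies in ragged seedling2, the gene of an ARGONAUTE7-like protein that acts with trans-acting small RNAs in leaf patterning. It is not analysed here.

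The groups were rgd2-R mutants and their non-mutant counterparts, the mutation having been crossed into the Mo17 inbred background over 5 generations. Seedlings of both genotypes shared 1 growth condition and were 14 days past germination when apical cells were cut out by laser, and RNA of both went through 2 rounds of amplification. Each hybridisation held rgd2-R RNA in one dye and non-mutant RNA in the other, where Cy3 marked rgd2-R in replicates 1 to 3 and Cy5 marked it in replicates 4 to 6. There were 6 biological replicates per design, each with a low, a mid and a high reading, and hence 36 samples from 12 hybridisations. The labels do not say how many seedlings entered a replicate, or whether replicates of the same number on SAM1 and SAM3 shared RNA. RNA of captured tissue cannot tell fewer cells of a type apart from less RNA per cell.

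Values are log2 ratios of rgd2-R over non-mutant after background correction and normalisation within each reading, averaged over the 3 readings. Over all SAM1 probes the readings of a replicate correlated at 0.248 to 0.810 and the replicates at -0.18 to 0.39. Readings of SAM1 replicate 5 correlated at 0.248 to 0.272, and those of the other SAM1 replicates at 0.651 to 0.810. Probes of KN-1, the homeobox gene that marks meristem cells, reached the 94.1st intensity percentile on SAM1 and the 96.5th on SAM3. On SAM3, replicate 3 did not have a settled direction. Its low and mid readings were the 2 of 36 readings in which Cy5 background exceeded Cy3 background, and they correlated at -0.911 and -0.909 with its high reading. SAM3 replicate 3 as labelled also correlated at -0.54 with replicate 1, -0.14 with replicate 4 and -0.22 with replicate 6. With replicates 2 and 5 it correlated at 0.305 and 0.151. With its low and mid readings turned it correlated at 0.62 with replicate 1, 0.16 with replicate 4 and 0.25 with replicate 6. With replicates 2 and 5 it was then at -0.34 and -0.18. SAM3 values are therefore given as labelled, with those 2 readings turned, with the high reading turned in their place, and with the 2 readings and replicate 2 turned, since replicate 2 correlated at -0.24 with replicate 1 and at -0.34 with the turned replicate 3.

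Of the 4 OBF1 probes, 1 was lower in rgd2-R in all replicates, 2 lay near 0 and 1 was higher in 5 of 6 replicates. Probe 6624 gave -0.77, -0.33, -0.98, -0.99, -0.34 and -1.12 in replicates 1 to 6. All 6 values lay below 0, with replicates 2 and 5 nearest to it. The mean was -0.75 (SD 0.34, n = 6; SE 0.12 in the limma model), which is 0.593-fold of the non-mutant intensity. Over all SAM1 probes 3.83% were lower in rgd2-R in all 6 replicates, and 0.0990% had a ratio at or below that of probe 6624. Among the 2331 SAM1 probes within 0.5 log2 units of its mean intensity, 7 had a ratio that low, itself included. OBF1 was chosen with such a ratio known, so these shares are no test of the probe.

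**Figure D1:**
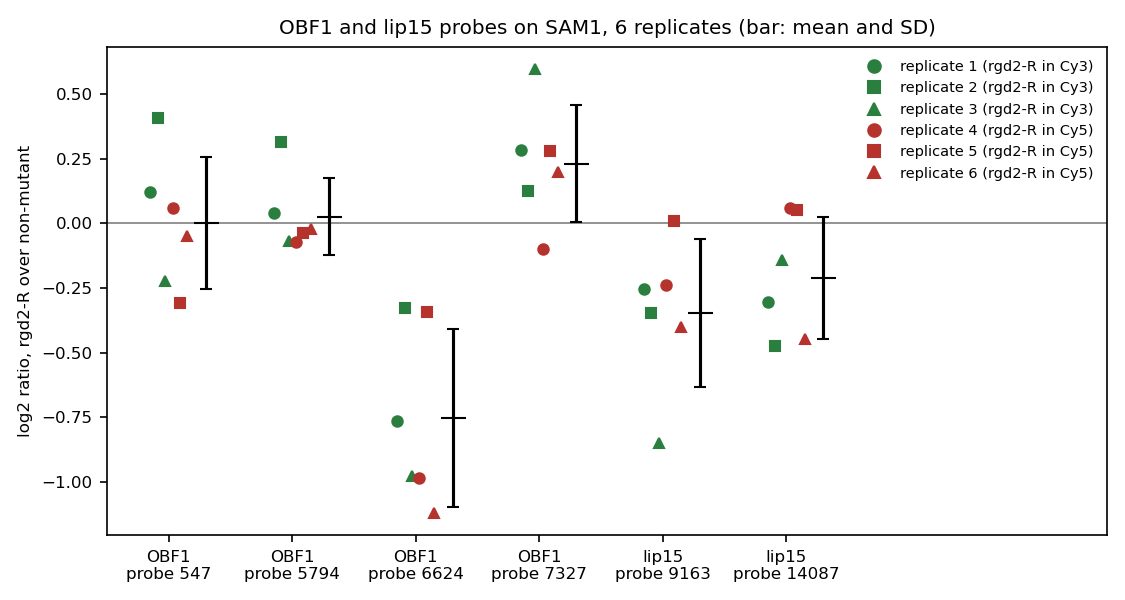
Log2 ratio of rgd2-R over non-mutant (y axis) for the 6 OBF1 and lip15 probes on SAM1 (x axis). Points are replicates, coloured by the dye that held rgd2-R, and the bar at the right of each probe is the mean with its SD over 6 replicates. OBF1 probe 6624 has all points below 0, from -1.12 to -0.33, while OBF1 probe 7327 has 5 of 6 above 0.

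The scanner signal behind probe 6624 shows how far the ratio rests on normalisation. In the mid reading, signal minus background was 1524, 1960, 493, 481, 1145 and 760 units in rgd2-R, against 1102, 1370, 1227, 2838, 2063 and 4541 units in non-mutant samples, in replicates 1 to 6. Before normalisation rgd2-R was thus the brighter channel in replicates 1 and 2, where it was in Cy3, and the dimmer one in replicate 3 and wherever it was in Cy5. Cy3 was the stronger dye over the array, with median SAM1 signals of 301 to 1948 units per reading against 101 to 554 units in Cy5. Over all 18 readings, rgd2-R was below non-mutant in 12 before normalisation and in 18 after it. Signal over background of this probe ran from 2.08 to 29.3 in rgd2-R, with a median of 7.23, against 8.55 to 50.8 in non-mutant samples, with a median of 19.6.

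The normalised intensity of probe 6624 was 10.09 ± 0.39 in rgd2-R and 10.84 ± 0.32 in non-mutant samples (log2 units, SD, n = 6 each). In rgd2-R it was 9.94, 9.97, 10.14, 9.85, 10.84 and 9.78, against 10.71, 10.29, 11.12, 10.83, 11.18 and 10.90 in non-mutant samples. The groups overlapped through rgd2-R replicate 5, which was the brightest of the 6 in rgd2-R, while within each hybridisation rgd2-R was the lower. The ratio was much alike in the low, mid and high readings, at means of -0.72, -0.75 and -0.79, although mean intensity went up from 9.78 to 10.54 and 11.04 over these readings. The SD between replicates (0.34) was larger than that among readings of a replicate (0.11).

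**Figure D2:**
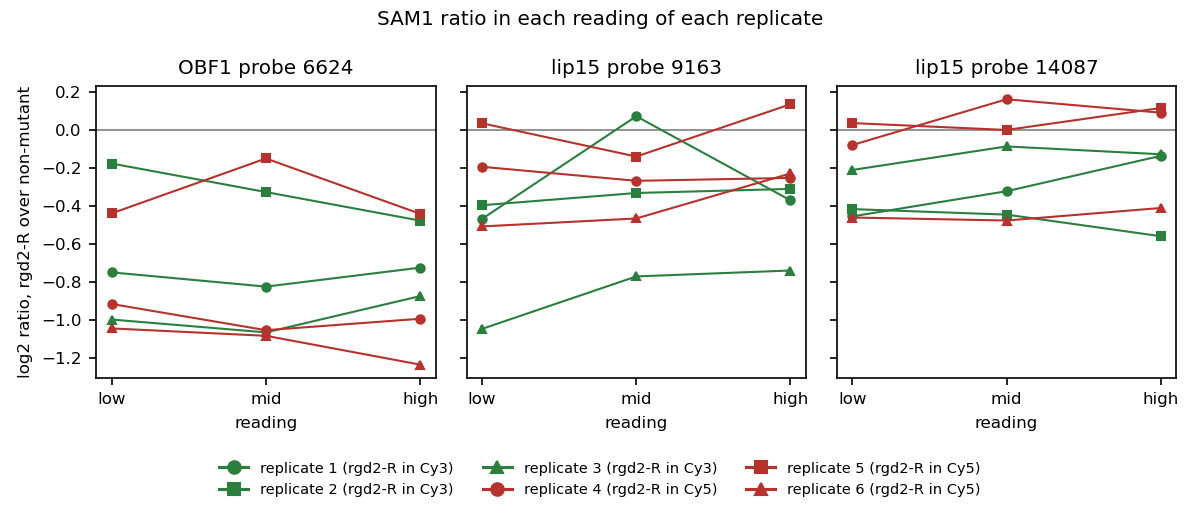
Log2 ratio of rgd2-R over non-mutant (y axis) in the low, mid and high reading (x axis) of each SAM1 replicate, for the 3 member probes with the lowest mean ratio. Lines join the readings of a replicate and are coloured by the dye that held rgd2-R. All 18 readings of OBF1 probe 6624 lie below 0, against 15 of 18 for lip15 probe 9163 and 14 of 18 for lip15 probe 14087.

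The other OBF1 probes did not share this value. Probe 7327 gave 0.29, 0.13, 0.60, -0.10, 0.28 and 0.20, so that replicate 4 alone was below 0, and averaged 0.23 (SD 0.23, SE 0.08). Probe 547 gave 0.12, 0.41, -0.22, 0.06, -0.31 and -0.05, with 3 replicates on either side of 0 (SD 0.26, SE 0.09). Probe 5794 gave 0.04, 0.32, -0.07, -0.07, -0.04 and -0.02, with a mean of 0.03 (SD 0.15, SE 0.06). Replicate 2 of probe 5794 stood apart, and the other values lay within a narrow band about 0.

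These probes also differed in how well they were measured. Probe 5794 was the dimmest of the 4, at the 34.6th percentile of intensity, and 15 of its 36 channel readings were under 2 times background. Probe 547 lay at the 54.1st percentile, with 4 such readings. Probes 7327 and 6624, at the 74.1st and 81.4th percentiles, had none. The probes with opposite means were therefore both above 2 times background in all readings, and the ones near 0 were the dimmer ones.

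The OBF1 probes ran from -0.75 to 0.23, a range of 0.98. Of the 104 named SAM1 genes with 3 to 5 probes, OBF1 alone had a range that wide, and the median range was 0.18. A SAM1 ratio of an OBF1 probe was among the results that led to the choice of this gene. The rank is therefore a description and lends no support. The next widest of these genes, named after its values were seen, was ccp1, a cysteine protease gene, with 3 probes from -0.72 to 0.13. Over the 6 replicates, the ratios of probes 6624 and 7327 correlated at r = -0.05 and those of probes 547 and 5794 at r = 0.82, as a description of points from the same hybridisations. Averaged over its probes, OBF1 was at -0.12 (SE 0.06), a value that no single probe shows. Which transcript each probe detects was not tested, since no probe sequence was used here.

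On SAM1 both lip15 probes had means below 0, as had 48.8% of all SAM1 probes. Probe 9163 gave -0.26, -0.35, -0.85, -0.24, 0.01 and -0.40, so that replicate 3 was the lowest and replicate 5 lay at 0. Its mean was -0.35 (SD 0.28, SE 0.09), which is 0.786-fold, and 15.3% of SAM1 probes were lower in rgd2-R in at least 5 of 6 replicates. Probe 14087 gave -0.30, -0.47, -0.14, 0.06, 0.05 and -0.45, with 4 replicates below 0 and replicates 4 and 5 just above it, and averaged -0.21 (SD 0.24, SE 0.08), or -0.13 without replicate 6.

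Probe 14087 was the brightest member probe, at the 93.0th percentile, and probe 9163 lay at the 76.2nd. Normalised intensity of probe 14087 was 11.66 ± 0.15 in rgd2-R and 11.88 ± 0.23 in non-mutant samples, and that of probe 9163 was 9.88 ± 0.35 in rgd2-R and 10.23 ± 0.42 in non-mutant samples (log2 units, SD, n = 6 each). The groups overlapped for both probes. The pair differed by 0.14 in mean ratio, and 35.2% of the 128 SAM1 genes with 2 probes differed by at least as much. Over the 6 replicates the ratios of the pair correlated at only r = 0.27, with a root mean square difference of 0.32. Averaged over both probes lip15 was at -0.28 (SE 0.07), below 0 in 5 of 6 replicates. The mean of probe 9163 was -0.43, -0.32 and -0.29 in the low, mid and high readings, and that of probe 14087 was -0.26, -0.19 and -0.17, so that in both the ratio was nearer 0 in the brighter readings.

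**Figure D3:**
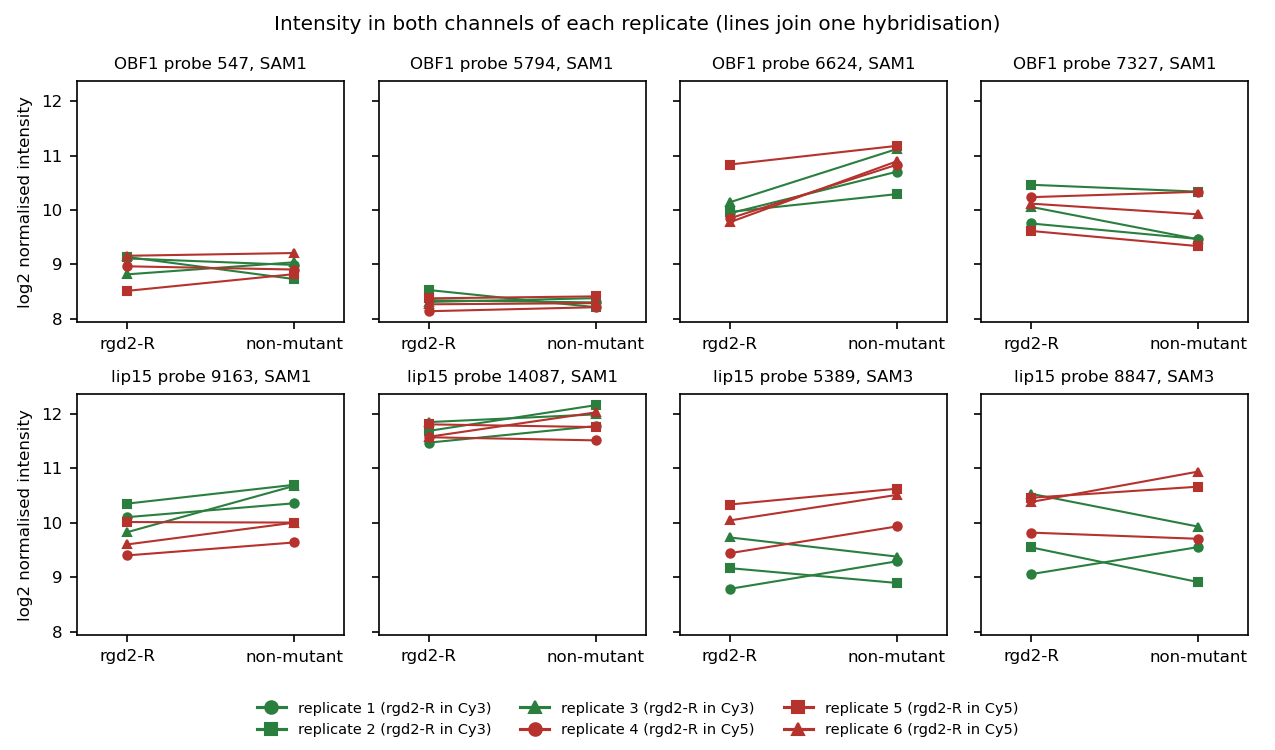
Log2 normalised intensity (y axis) of each OBF1 and lip15 probe in rgd2-R and in non-mutant RNA (x axis), on the array named above each panel. Lines join the channels of a hybridisation and are coloured by the dye that held rgd2-R. OBF1 probe 6624 is lower in rgd2-R in all 6 hybridisations, and lip15 probe 14087 is the brightest of the 8 probes.

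The dye orientation, a term of the model that does not enter the genotype ratio in this balanced swap, was tested apart from it. Probe 6624 averaged -0.69 with rgd2-R in Cy3 and -0.82 with rgd2-R in Cy5. For lip15 the SAM1 means were lower with rgd2-R in Cy3. They were -0.48 against -0.21 in Cy5 for probe 9163 and -0.31 against -0.11 for probe 14087. On SAM3 as labelled the lip15 means were instead higher with rgd2-R in Cy3. They were 0.04 against -0.42 in Cy5 for probe 5389 and 0.25 against -0.22 for probe 8847. The SAM3 dye values use the labelled direction of replicates 2 and 3, both with rgd2-R in Cy3. None of the 8 member probes passed the dye test, with limma adjusted p-values of 0.647 to 0.886. Over all probes 0% passed it on either array at an adjusted p under 0.05, while 10.2% on SAM1 and 6.56% on SAM3 had an unadjusted p under 0.05.

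On SAM3 the direction of lip15 was not settled. As labelled, probe 5389 gave -0.51, 0.27, 0.35, -0.49, -0.29 and -0.47, with replicates 2 and 3 above 0 and the other 4 below it. Its mean was -0.19 (SE 0.12, limma adjusted p = 0.875), and -0.053 without replicate 1. Probe 8847 gave -0.50, 0.64, 0.60, 0.11, -0.20 and -0.56, with 3 replicates on either side of 0, and a mean of 0.02 (SE 0.17, limma adjusted p = 0.999). At an adjusted p under 0.05, 0% of all SAM3 probes passed, the smallest being 0.474, and 6.58% had an unadjusted p under 0.05. Ratios as labelled were below 0 in 51.4% of them. Both SAM3 probes lay on the same side of 0 in all replicates but replicate 4, with r = 0.88 over the 6 ratios as labelled.

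The value of SAM3 replicate 3 as labelled is an average of readings with opposite signs. Probe 5389 gave 1.43, 1.21 and -1.58 in its low, mid and high readings, and probe 8847 gave 2.09, 1.67 and -1.95. In the other 5 replicates the 3 readings of either probe differed far less. With the low and mid readings turned, replicate 3 was at -1.41 for probe 5389 and at -1.90 for probe 8847, the lowest of the 6 in both. The means were then -0.48 (SE 0.20, limma adjusted p = 0.674) with 5 of 6 replicates below 0, as in at least 5 for 14.4% of all SAM3 probes, and -0.40 (SE 0.31, limma adjusted p = 0.712) with 4 of 6 below 0. With the high reading turned instead, replicate 3 was at 1.41 for probe 5389 and at 1.90 for probe 8847, the highest of the 6 in both, and the means were -0.013 (SE 0.23, limma adjusted p = 0.995) and 0.23 (SE 0.30, limma adjusted p = 0.979). With the low and mid readings and replicate 2 turned they were -0.57 (limma adjusted p = 0.204) and -0.61 (limma adjusted p = 0.239). Neither probe passed in any of these 4 directions, and replicate 2 was turned because of these same data, which can by itself lower a p.

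**Figure D4:**
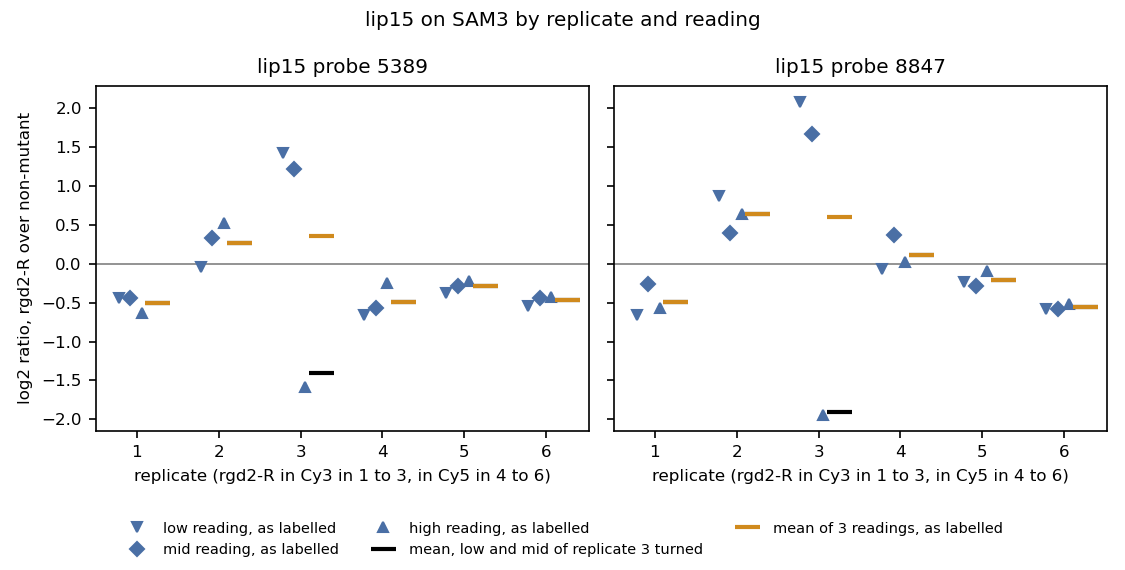
Log2 ratio of rgd2-R over non-mutant (y axis) of the lip15 probes on SAM3 in replicates 1 to 6 (x axis). Symbols are the low, mid and high readings as labelled, and bars are replicate means, in orange as labelled and in black with the low and mid readings of replicate 3 turned. Only in replicate 3 do the readings of probe 5389 run from 1.43 to -1.58 and those of probe 8847 from 2.09 to -1.95.

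SAM1 probe 9163 and SAM3 probe 8847 were assigned to the same expressed sequence tag in the annotation. Set side by side, probe 9163 averaged -0.35 on SAM1, and probe 8847 averaged 0.02 as labelled, -0.40 with the low and mid readings of replicate 3 turned, 0.23 with its high reading turned and -0.61 with its low and mid readings and replicate 2 turned. The arrays were normalised and fitted apart, so these values were not tested against each other.

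The 4 other bZIP genes on SAM1 had ratios of -0.20 to 0.06. o2, the endosperm regulator opaque2, gave -0.34, -0.35, -0.13, -0.19, 0.03 and -0.23, below 0 in all but replicate 5. Its mean was -0.20 (SE 0.06, limma adjusted p = 0.203), and -0.41 with plain background subtraction. ohp1 and ohp2, which encode partners of the opaque2 protein, were at 0.06 and -0.03, and lg2, a bZIP gene of the ligule, was at 0.01. Of these 4 genes 2 were below 0, 1 had an unadjusted p under 0.05, and their median was -0.01, beside a median of 0.00 over all 583 named SAM1 genes, of which 12% had an unadjusted p under 0.05 and 0% an adjusted one. On SAM3, ohp2 was at -0.06 and GBF1, a G-box binding factor, at 0.03, and both were above 0 with the low and mid readings of replicate 3 turned, while ohp2 was at -0.13 with the high reading turned.

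Of the 6 cold response genes of SAM1, 5 were below 0 with a median of -0.04, and 1 had an unadjusted p under 0.05. Over all 583 named SAM1 genes, 286 were below 0. DBP1a gave -0.50, -0.05, -0.31, -0.23, -0.89 and -0.13, all below 0, with replicate 5 the lowest. Its mean was -0.35 (SE 0.11, limma adjusted p = 0.222), but it was -0.018 in the low reading alone, -0.81 in the high reading alone, -0.82 with plain background subtraction and -0.23 without replicate 5. dehydrin3, a gene for a protective protein of dry or cold cells, was at -0.14 (SE 0.06). dbf1 was at -0.06 and fad7, a plastid fatty acid desaturase gene, at -0.02. The 1 gene above 0, named after its values were seen, was COR413-TM1, at 0.06 (SE 0.08). On SAM3 the DBP1a probe was at -0.04 and CDPK, a calcium-dependent protein kinase gene, at -0.10 as labelled. There dehydrin3 was at -0.02, dbf1 at -0.05 and fad7 at 0.05, and the list ran from -0.10 to 0.09. Of the 11 cold response genes there, 6 were below 0 as labelled and with the high reading of replicate 3 turned. With its low and mid readings turned 5 were below 0, and 3 with replicate 2 turned too. Over all 598 named SAM3 genes, 305 were below 0 as labelled. Of all SAM3 probes 49.1% were below 0 with the low and mid readings turned, and 50.9% with replicate 2 turned too. There the share with an unadjusted p under 0.05 over all 598 named genes was 5.69%, and none of the 11 was among them.

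**Figure D5:**
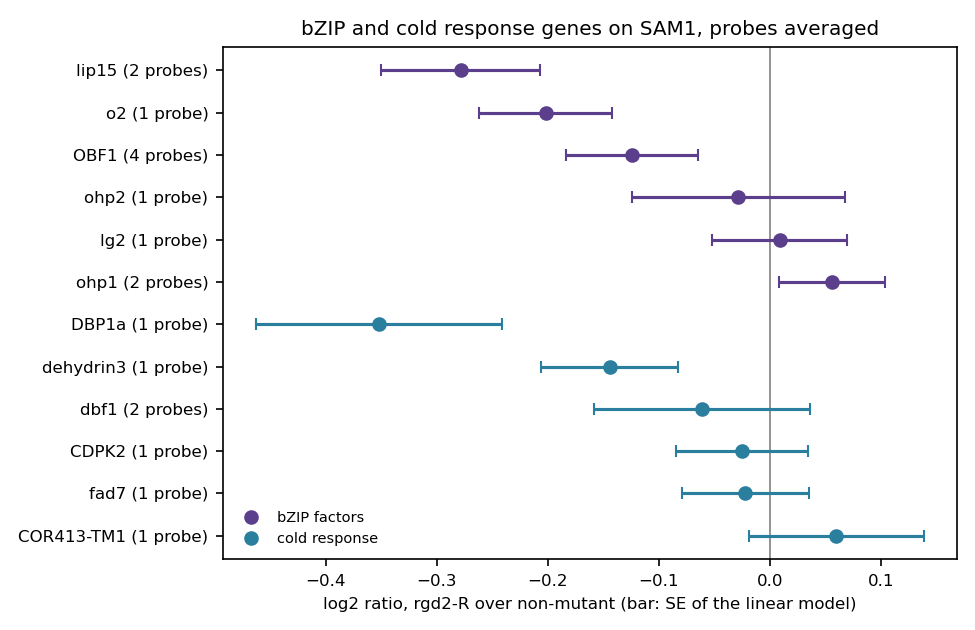
Log2 ratio of rgd2-R over non-mutant on SAM1 (x axis) for the bZIP and cold response genes (y axis), with the probes of a gene averaged. Points are means over 6 replicates and bars the SE of the linear model. lip15 at -0.28 and DBP1a at -0.35 are the lowest of their lists, and OBF1 is at -0.12 as the mean of 4 probes that ran from -0.75 to 0.23.

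Genes of the kinds studied in maize as targets of ocs-element or bZIP factors lay on both sides of 0. The list was drawn up by gene symbol and took in glutathione transferase genes at large. A member thus need not have been studied as a target itself. On SAM1 9 of 18 were below 0, with a median of -0.02, and none had an unadjusted p under 0.05. gz27, a storage protein gene of the endosperm, was at 0.15 (SE 0.07). gst28, a glutathione transferase gene, was at 0.17 (SE 0.09) and gst41, another, at -0.11 (SE 0.07). On SAM3 7 of 16 were below 0 as labelled and with the high reading of replicate 3 turned, and 10 of 16 with its low and mid readings turned, with or without replicate 2. Of all SAM3 probes 51.4% were below 0 as labelled. The share was 49.1% with the low and mid readings turned and 50.9% with replicate 2 turned too. gst41 had the lowest ratio of the list in all 4 directions, at -0.29 as labelled (SE 0.15, limma adjusted p = 0.843), -0.46 with the low and mid readings turned, -0.19 with the high reading turned and -0.51 with replicate 2 turned too. AS was at 0.10 as labelled (SE 0.05, limma adjusted p = 0.819) and at -0.06 with the low and mid readings turned.

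Markers of the cell types that a captured apex can hold were measured on the same arrays. On SAM1 lg3, a KNOX homeobox gene, was at 0.17 (SE 0.06, limma adjusted p = 0.244). ocl4, a homeobox gene of the outer cell layer, was at 0.21 (SE 0.06, limma adjusted p = 0.186). Both had an unadjusted limma p under 0.05, as had 12% of the 583 named SAM1 genes. KN-1 was at -0.12 (SE 0.08). With plain background subtraction lg3 was at 0.47 and ocl4 at 0.47, beside -0.32 for lip15. The other 3 outer layer markers, ocl1, ocl2 and gl8, lay between -0.03 and 0.03. Of the 7 leaf markers 2 were below 0, over a range of -0.13 to 0.20. Of the 3 vascular and lignin markers, SH-1, ss2 and PAL1, all were, at -0.12 to -0.03. SH-1 and ss2 were also counted in the target list above. On SAM3 as labelled KN-1 was at -0.06, and lg3 was at 0.001, above 0 in 3 of 6 replicates. lg3 was at -0.23 with the low and mid readings of replicate 3 turned and at 0.12 with its high reading turned. With the low and mid readings and replicate 2 turned lg3 was at -0.12. KN-1 was at -0.15, -0.02 and -0.24 in these 3 turned directions. The 3 outer layer markers of SAM3 ran from 0.0004 to 0.18 as labelled. In the direction with replicate 2 turned too they ran from -0.21 to -0.11. The 3 leaf markers ran from -0.07 to 0.05 as labelled and from -0.20 to -0.006 there. For the 3 vascular and lignin markers the ranges were -0.12 to 0.02 and -0.23 to 0.01. The part of the cell types in the OBF1 and lip15 ratios was not tested.

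The named genes whose 6 replicate ratios ran most like those of OBF1 on SAM1, probes averaged, were tua4, an alpha tubulin gene (r = 0.993), INO1, an inositol phosphate synthase gene (r = 0.991), and arf1 (r = 0.980), among 582 genes compared. For lip15 on SAM1 they were sugary2, a starch synthase gene (r = 0.960), LOC541622 (r = 0.940) and gst30 (r = 0.923). For lip15 on SAM3 as labelled they were der2 (r = 0.986), nfc102 (r = 0.983) and m26 (r = 0.974), among 597. That order depends on replicate 3. With its low and mid readings turned they were der2 (r = 0.994), nfa101 (r = 0.985) and nas1 (r = 0.983), with its high reading turned der2 (r = 0.994), nas1 (r = 0.990) and nfc102 (r = 0.985), and with the low and mid readings and replicate 2 turned mir3 (r = 0.988), fie2 (r = 0.980) and LOC541880 (r = 0.979). These correlations rest on 6 points that share their hybridisations, and on mean ratios as different as -0.28 for lip15 and 0.03 for sugary2. Those of OBF1 also rest on an average of probes that did not run alike. Their pairwise r went from -0.51 (probes 547 and 7327) to 0.82 (probes 547 and 5794).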

How the data were processed

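The deposited intensity values are mean spot signal and background per dye, uncorrected, per the file headers. Per the file headers the files also hold a normalized ratio of background-corrected intensities, which the authors gave as a natural log. For its method and for the image software with its settings, the sources used here give nothing. The authors' ratios were used as an alternative. They were read from the sample titles as non-mutant over rgd2-R, and the sign was turned alike in all samples. Depth in the sense of counts does not apply to arrays, and the number of replicates limits precision.

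From the signals, background was corrected with normexp (offset 50) and ratios were normalised by loess within each reading, with R 4.3.3 and its package limma 3.58.1. Averaging over the 3 readings gave 1 value per replicate. For the normalised intensity of each genotype, mean intensities were first given the same distribution over all readings of an array (limma method Aquantile). That step leaves the ratios unchanged. A model with genotype and dye terms was fitted per array with lmFit and eBayes, leaving 4 residual degrees of freedom, with two-sided p-values adjusted by Benjamini-Hochberg over all probes (for genes, over genes and unnamed probes) and called under 0.05. The model was tested on simulated data. Names came from the platform annotation, and 1800 SAM1 and 1159 SAM3 probes had 1 gene. The members and gene lists were chosen with earlier results of these data known. Named are all member probes, the 3 most alike genes, and list genes with an unadjusted p under 0.05 with up to 4 others per list of smallest p over both arrays, and cell type markers. The labels call the replicates biological. Their RNA sources are not given, so the p-values measure the spread between these samples. Each hybridisation pairs the genotypes. Alternatives changed the background correction, normalisation, dye term, readings, source of ratios, dim probes, replicates and the SAM3 direction.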

Additional observations from a re-analysis of the deposited data

Results flagged for a closer look

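OBF1 probe 5794 on SAM1 gave 0.32 in replicate 2, far from the other 5 replicates (-0.07 to 0.04) for its spread, with a Dixon ratio of 0.706. The probe was the dimmest of the OBF1 probes. No other member probe on SAM1 or SAM3 had a replicate that stood apart by this measure.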

How the results depend on the processing

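Over the 16 alternatives on SAM1, OBF1 probe 6624 ran from -0.87 to -0.68, lip15 probe 9163 from -0.43 to -0.26, lip15 probe 14087 from -0.28 to -0.13 and OBF1 probe 7327 from 0.16 to 0.31, each with the same sign throughout, while OBF1 probe 547 kept its sign in 7 and probe 5794 in 13. The count of SAM1 probes passing, 0 as reported (2842 at an unadjusted p under 0.05), was 195 without background correction, 11 with median centring, 36 from the mid reading alone, 1 from the authors' ratios, 42 with the dimmest 25% left out and 0 to 2 with a replicate left out (2 without replicate 2). With the 18 readings fitted with the replicate as a block, 1819 SAM1 and 255 SAM3 probes passed. Readings of a hybridisation are repeat measurements, so these counts do not rest on more replicates. On SAM3, lip15 probe 8847 changed sign to -0.066 without background correction, -0.035 with plain subtraction, -0.036 with the authors' ratios, -0.41 from the high reading alone or with only that reading of replicate 3 (chosen after seeing the data), -0.40 with the other readings of replicate 3 turned and -0.61 with replicate 2 turned too, and ran from -0.082 to 0.20 with a replicate left out. It moved up to 0.24 from the low reading alone, 0.22 from the mid reading alone and 0.23 with the high reading of replicate 3 turned, where the lip15 mean was 0.066, 0.094 and 0.11. With its low and mid readings and replicate 2 turned the lip15 mean was -0.59 and 2 probes passed. lip15 probe 5389 was below 0 in all 20 alternatives (-0.57 to -0.013), at -0.27 to -0.053 with a replicate left out. The cause of these changes was not tested.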
